A study of Sus scrofa with 24 samples.

Results

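The comparison described here sets hippocampal gene expression of 6 litters of piglets fed an HF formula against 6 litters fed a control (CON) formula, with the litter as the unit of replication. A litter is a pair of sex-matched littermates on the same diet that share a pair number in the sample labels, of which one was small for gestational age (SGA) and the other appropriate for gestational age (AGA). All 24 libraries of the series entered as 12 litter values, each from 2 piglets. HF stands for hydrolyzed fat, and the paper gives both formulas a similar total fat content, so the contrast is not one of a high-fat diet. In the HF formula part of the triglyceride oil was replaced by soy free fatty acids, a palmitate monoglyceride and soy lecithin. That formula also held added cholesterol, which CON lacked, and more choline, so the diets differed in more than the form of the fat. The piglets were a cross of PIC Camborough dams and PIC 359 sires, were not genetically modified, and were 14 days old when the hippocampus was dissected. RNA came from a weighed amount of that tissue, and the paper does not say which part of the hippocampus it was. Each diet had 3 litters in cohort 1 (replicates 1 to 3) and 3 in cohort 2 (replicates 4 to 6), and 3 male and 3 female pairs. Sources used here do not say whether different pairs had the same sow.

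Dietary triglycerides are cleaved in the gut to free fatty acids and monoglycerides before they are absorbed, and newborns do this less well than adults. The brain takes up essential fatty acids from the circulation but makes nearly all of its own cholesterol, and myelin, the lipid-rich sheath that oligodendrocytes wrap around axons, is laid down rapidly in the weeks around birth. The hippocampus, which serves spatial learning and memory, still adds granule neurons and myelin at this age. The comparison asks which hippocampal transcripts differ between the formulas, and in particular those for lipid handling, myelin, immune defence and synapses.

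Total counts over the 38882 listed genes were between 6017336 and 9284355 per library, and the mean of the litters was 7.459e+06 ± 6.438e+05 (SD, n = 6) for HF and 7.553e+06 ± 9.745e+05 (SD, n = 6) for CON (two-sided exact permutation test over all splits of the 12 litters, p = 0.842). At these totals, 3 counts in one library correspond to 0.323 to 0.499 CPM, which are counts scaled to library size. Values of 13 of 16 hippocampal excitatory neuron markers passed the filter of at least 1 CPM in at least 3 libraries. SLC17A7, the vesicular glutamate transporter of these neurons, stood at 3198 ± 273 CPM in HF and 3563 ± 609 CPM in CON litters, and PROX1, a dentate granule cell factor, at 49.5 and 46.8 CPM (means, n = 6 each). CALB1 was near the limit of counting at 0.613 and 0.596 CPM, and ZBTB20 had 6 counts in all 24 libraries together. One library, SGA HF replicate 4, held 2574 of the 2657 counts of the pituitary hormone gene GH1 in the whole series, with 62 of 71 counts of PRL and 60 of 123 of CGA. Both piglets of the CON litter of replicate 2 stood apart in immune transcripts, as given below. That litter and the HF litter of replicate 4 also had the lowest sums of the 13 excitatory neuron markers, at 3279 and 3713 CPM. Their AGA piglets stood at 2249 and 2901 CPM, and the SGA littermates at 4309 and 4524 CPM. The cause was not tested. Leaving out the CON litter of replicate 2 turned the sign of the median of 11 of the 34 gene lists described here, and leaving out the HF litter of replicate 4 that of 7. Those values are given beside the lists.

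No gene differed between HF and CON litters after adjustment. At a false discovery rate (FDR) under 0.4, the permissive threshold the paper names, 0 of 16326 genes tested were called (0.0% of genes, edgeR quasi-likelihood test on the summed counts of littermates, with terms for sex and cohort). DESeq2, limma voom and limma on the littermates' mean log2 CPM also called 0 genes, with 557, 608 and 622 genes at an unadjusted p under 0.05. The smallest FDR was 0.763 and the next was 0.999. Without the CON litter of replicate 2, 12 genes were called (3 higher, 9 lower), among them EFEMP1 and HS3ST4. Without the HF litter of replicate 4, 22 were called (5 higher, 17 lower), among them RSPO2, GNLY, PSORS1C2 and RGCC. Leaving out the CON litter of replicate 1, 3 or 4 gave 1, 1 and 2 calls, and leaving out any other litter gave 0. At an unadjusted p under 0.05 there were 625 genes in edgeR, fewer than the 816 that 16326 tests would give by chance alone. Of these, 293 were higher in HF litters (1.79% of genes) and 332 lower (2.03%). Over all genes, 8080 were higher and 8246 lower, with a median log2 fold change of -0.0014.

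**Figure D1:**
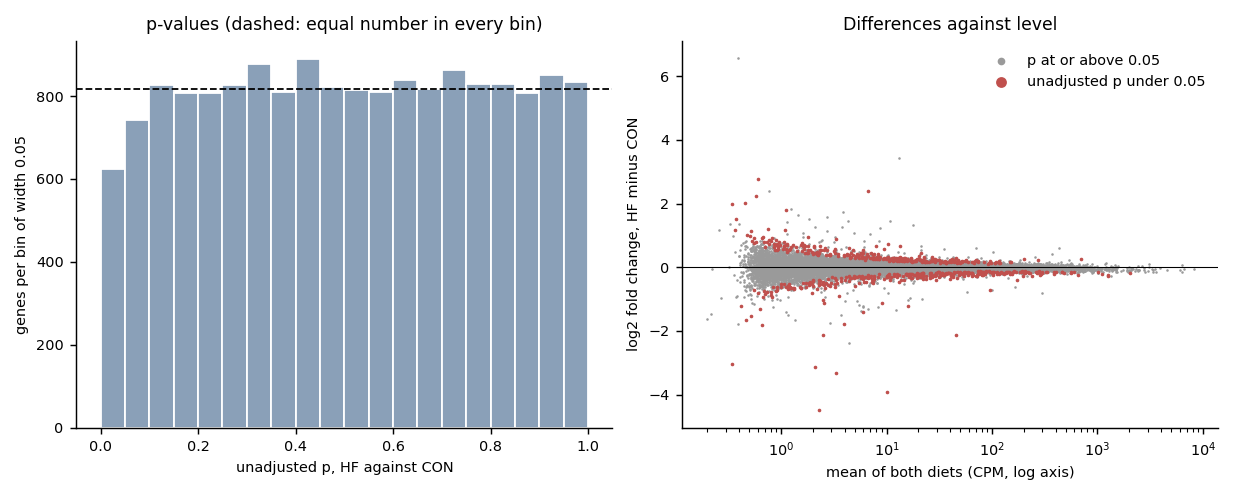
Left, the number of genes in each bin of unadjusted p for HF against CON litters (6 against 6), with a dashed line at an equal number per bin. Right, the log2 fold change of each gene against its mean CPM (log axis), with the genes at an unadjusted p under 0.05 in red. The lowest bin holds 625 genes and lies under the dashed line at 816.

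The size of difference that the 12 litters leave room for is set by the litter-to-litter spread. The common biological coefficient of variation between litters was 0.13, and the standard error of the log2 difference had a median of 0.112. The 95% confidence interval of the median gene reached 0.238 to either side on the log2 scale, against a median absolute difference of 0.0783. For 76.0% of the 16326 genes the interval lay within a 1.5-fold difference in either direction, and for 93.3% within 2-fold. Among the 9078 genes with a mean of at least 10 CPM, 98.0% had an interval within 1.5-fold and 64.0% within 1.2-fold.

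The smallest p of all genes was that of gene 102167096, which has no symbol. It stood at 24.3 CPM in the CON litter of replicate 2 and at 1.62 CPM or less in every other litter (adjusted p = 0.763, edgeR). Among genes with a symbol, the 10 of smallest p in each direction are described by their values, and none passed the test (FDR 0.999 for each). They had been picked from this same contrast, so their direction holds by selection. TM7SF2 encodes a sterol reductase of cholesterol synthesis. Its litter means ran from 273.0 to 310.1 CPM in HF (median 292.9) and from 216.9 to 272.6 CPM in CON (median 251.7). All 6 HF litters lay above all 6 CON litters, if barely at the edge, and the log2 fold change was 0.23 ± 0.062 (SE, adjusted p = 0.999, edgeR). CCNT2, the cyclin subunit of a transcription elongation kinase, likewise did not overlap, at 2.04 to 2.98 CPM in HF (median 2.46) and 1.44 to 1.81 CPM in CON (median 1.62). Its log2 fold change was 0.62 ± 0.17 (SE). GDF10, a growth factor of the TGF-beta family, had no overlap in the other direction. HF litters ranged from 4.70 to 7.60 CPM (median 6.09) and CON litters from 7.67 to 9.81 CPM (median 8.67), a log2 fold change of -0.49 ± 0.12 (SE).

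Over all genes, litter means of 16 genes were higher in every HF litter than in any CON litter (0.098% of genes), and those of 10 were lower (0.0613%). Besides TM7SF2 and CCNT2, the higher ones with a gene symbol were MYCBP, DEPTOR, CEBPG, GLT8D2, PEX3, NEK3, NSD1 and KDM5B. DEPTOR, an inhibitor of the growth-controlling kinase mTOR, stood at 15.0 to 18.8 CPM in HF and 13.1 to 14.8 CPM in CON litters. PEX3, which is needed to build peroxisomes, stood at 18.6 to 23.4 and 16.3 to 18.1 CPM. Lower in every HF litter were GDF10, TAF3, PIM1, PTGER1, TAF5L and INTS3. TAF3, a subunit of the general transcription factor TFIID, stood at 13.7 to 17.3 CPM in HF and 18.3 to 20.2 CPM in CON litters. PTGER1, a receptor for prostaglandin E2, was near the limit of counting, at 0.234 to 0.774 and 0.777 to 1.604 CPM. In these 4 examples, which were chosen after their values were seen, the gap between the diets was narrower than the range within either diet.

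EFEMP1, a fibulin of the matrix, ran from 7.23 to 12.3 CPM in HF litters (median 9.58) and from 3.79 to 8.42 CPM in CON litters (median 6.39). With a log2 fold change of 0.65 ± 0.16 (SE) it had the smallest p of the genes with a symbol higher in HF, and 4 HF litters lay above every CON litter. RSPO2, a secreted enhancer of Wnt signalling, ran from 6.91 to 10.6 CPM (median 9.81) and from 5.56 to 8.66 CPM (median 7.02), with 5 HF litters above every CON litter. EGFLAM, the matrix protein pikachurin, ran from 3.49 to 7.21 CPM (median 5.56) in HF and from 1.98 to 5.14 CPM (median 3.31) in CON litters. TLL2, a metalloprotease related to tolloid, ran from 0.966 to 2.55 CPM (median 2.18) and from 0.760 to 1.56 CPM (median 1.19). The log2 fold changes of these 3 were 0.42 ± 0.11, 0.61 ± 0.19 and 0.77 ± 0.22 (SE), and the groups overlapped in each.

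Of the others, DCLK1, a microtubule-associated kinase of young neurons, ran from 42.8 to 58.4 CPM in HF (median 51.7) and from 34.0 to 47.5 CPM in CON (median 40.2). IGFBPL1, which is made by immature neurons, ran from 30.5 to 37.4 CPM (median 33.9) and from 26.8 to 33.0 CPM (median 28.0). Differences in both were modest, with log2 fold changes of 0.30 ± 0.079 and 0.23 ± 0.072 (SE). XKRX ran from 1.92 to 3.69 CPM (median 2.73) and from 1.17 to 2.24 CPM (median 1.79). CD5L, a protein secreted by macrophages, was under 0.3 CPM in all CON litters and in the HF litters of replicates 2 and 3, and between 0.921 and 1.88 CPM in the other 4 HF litters. All CON litter means of CD5L were thus below what 3 counts in one library give. CD5L reached 1 CPM only in HF libraries, so it entered the test through that diet alone. Its highest CON library was at 0.462 CPM.

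Of the 10 genes with lower HF values, GNLY, CCL2 and RAC2 are known from immune cells. GNLY, the cytotoxic granule protein granulysin, ran from 0.992 to 2.34 CPM in HF (median 1.44) and from 1.56 to 9.34 CPM in CON litters (median 2.65), with the highest value in replicate 2. CCL2, a chemokine that draws monocytes, ran from 0.904 to 2.65 CPM (median 1.33) and from 1.79 to 6.72 CPM (median 2.496). The CON litters of replicates 2 and 3, at 6.72 and 5.70 CPM, stood above the other 4, which reached 2.63 CPM. In replicate 3 the SGA piglet held nearly all of it, at 10.85 CPM against 0.542 CPM in its AGA littermate. RAC2, a GTPase of blood cells and microglia, ran from 17.2 to 24.7 CPM (median 20.4) in HF and from 22.7 to 33.8 CPM (median 26.7) in CON litters. The log2 fold changes were -1.03 ± 0.24, -1.13 ± 0.30 and -0.36 ± 0.10 (SE), the diets overlapped in all 3, and none passed.

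LAP3, an aminopeptidase, ran from 24.5 to 33.1 CPM in HF litters (median 27.5) and from 29.6 to 40.8 CPM in CON litters (median 34.1). RGCC, a cell cycle regulator, ran from 40.9 to 54.8 CPM (median 50.8) and from 49.1 to 71.6 CPM (median 59.1). DYSF, the membrane repair protein dysferlin, ran from 12.1 to 15.7 CPM (median 14.6) and from 14.2 to 20.3 CPM (median 18.6). In each of these 3 the higher HF litters lay among the lower CON litters, with log2 fold changes between -0.30 and -0.27. The neuropeptide gene GAL ran from 1.03 to 4.77 CPM (median 2.52) and from 1.78 to 6.39 CPM (median 3.95), and within each diet its 3 litters of cohort 2 lay above its 3 litters of cohort 1. PSORS1C2 ran from 4.26 to 7.35 CPM (median 6.32) in HF and from 6.44 to 10.7 CPM (median 8.49) in CON litters. MFRP was scarce, at 0.131 to 0.517 CPM in HF and 0.208 to 1.77 CPM in CON litters, with a log2 fold change of -0.22 in the AGA and -2.22 in the SGA piglets alone. MFRP reached 1 CPM only in SGA CON libraries, so it entered the test through CON alone. Its highest HF library was at 0.646 CPM.

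**Figure D2:**
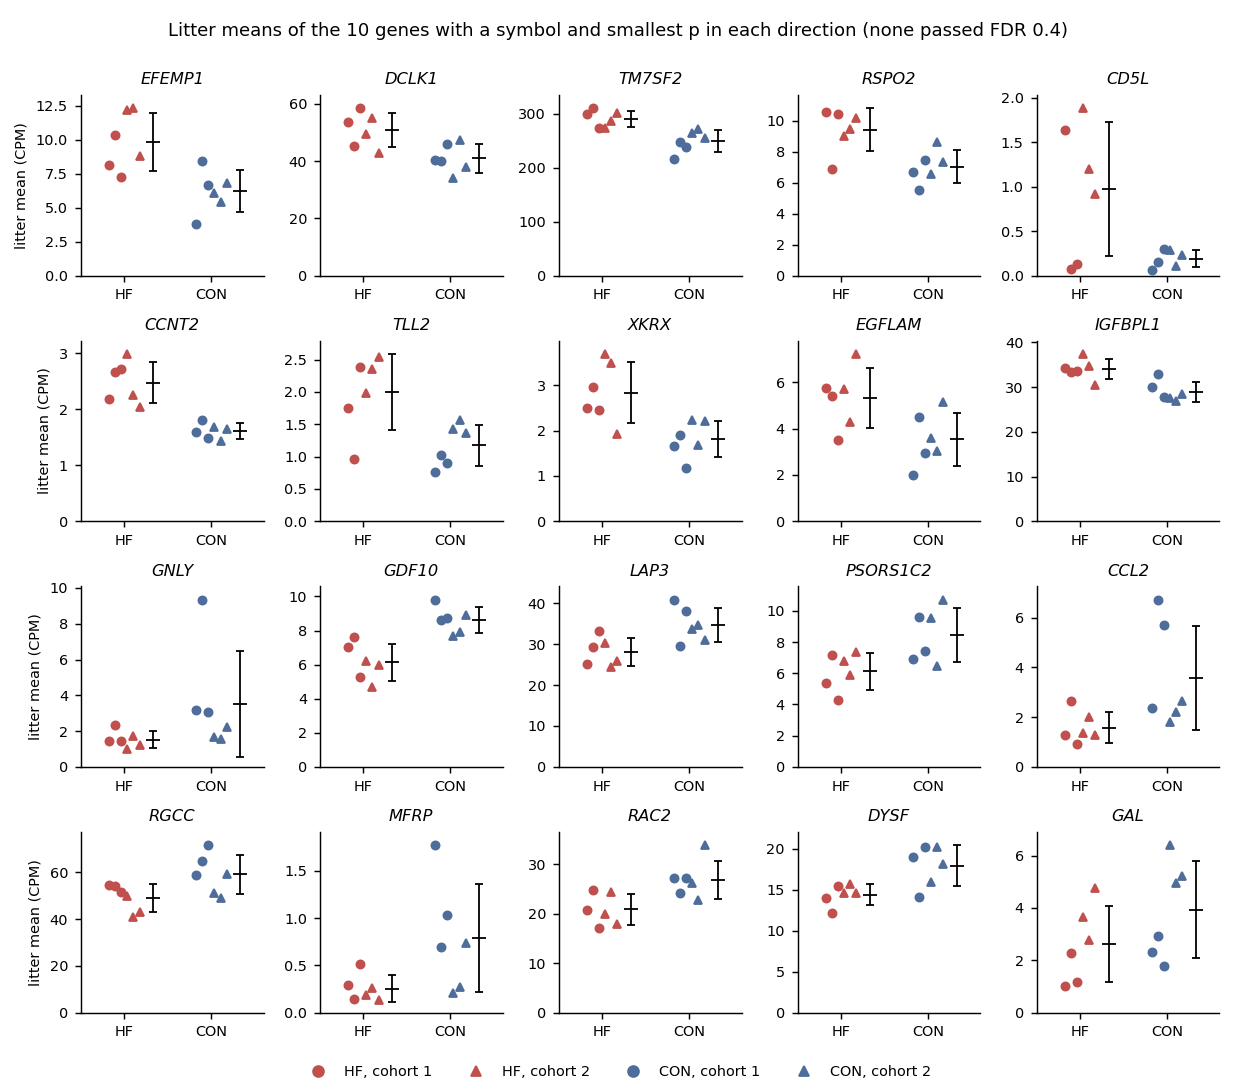
Litter means in CPM (mean of the SGA and the AGA littermate) of the 10 genes with a symbol of smallest p in each direction, for 6 HF and 6 CON litters, with the mean and SD in black and each vertical axis starting at 0. Circles are cohort 1 and triangles cohort 2. TM7SF2, CCNT2 and GDF10 did not overlap between diets, and the other 17 did.

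The diet difference was also measured separately in the cohorts, which have no piglet in common. Cohort 1 alone gave 0 calls at FDR under 0.4 and cohort 2 alone gave 6 (5 higher, 1 lower), with 3 litters per diet in each and 789 and 650 genes at an unadjusted p under 0.05 in edgeR. Over the 9078 genes with at least 10 CPM, the log2 fold changes of the 2 cohorts had a Pearson correlation of -0.0621 and a Spearman correlation of -0.0544 across genes, which are not independent replicates. Over all 16326 genes, 48.4% had the same sign in both cohorts. Among the 500 genes of smallest p in cohort 1, 44.0% had the same sign in cohort 2, and among the 500 of cohort 2, 48.6% had the same sign in cohort 1. The lists of 500 had 13 genes in common, 2.60% of each. Between AGA piglets alone and SGA piglets alone, which come from the same litters, the correlation was -0.00483 and 53.5% of genes had the same sign.

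**Figure D3:**
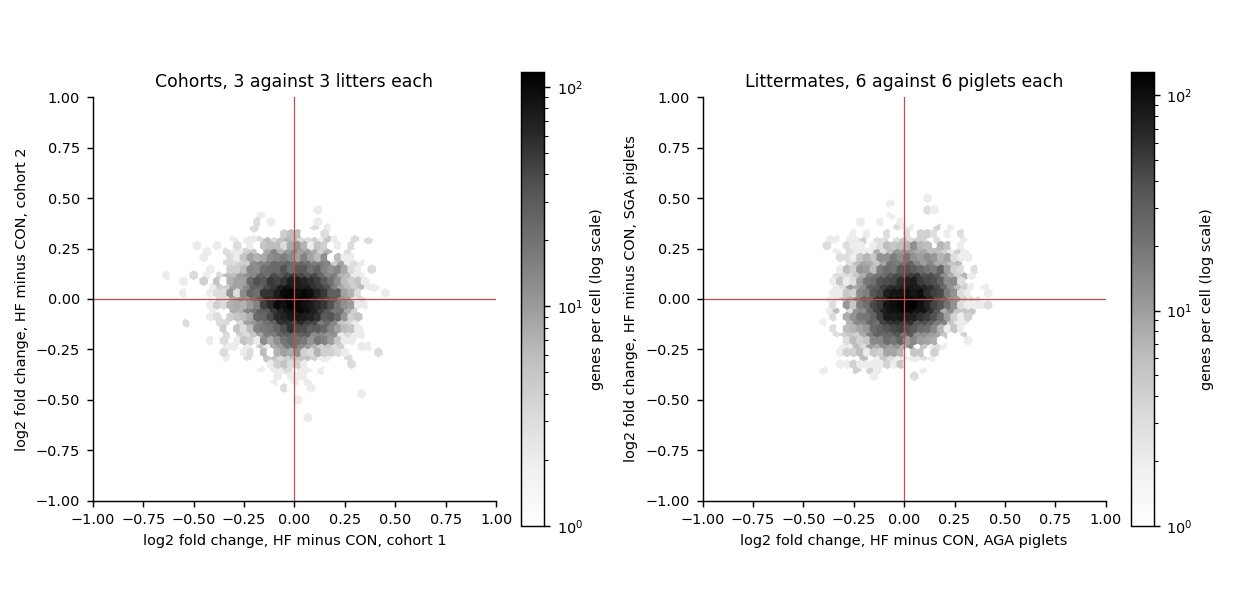
Log2 fold changes of HF against CON for genes with a mean of at least 10 CPM, cohort 2 against cohort 1 on the left and SGA against AGA piglets on the right, shaded by the number of genes (log scale). Both clouds are round about 0, with correlations of -0.0621 and -0.00483. Axes end at 1 and -1, which leaves out 21 genes on the left and 25 on the right.

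The test of the difference between cohorts called 2 genes at FDR under 0.4 (0.0123% of genes), and both lie on chromosome 14, with only SNCG of the tested genes with a symbol between them. ADIRF, an adipogenesis regulatory factor (chromosome 14, 95183015 to 95185230 of Sscrofa10.2, minus strand), averaged 14.1 ± 1.74 CPM in HF and 17.1 ± 7.51 CPM in CON litters of cohort 1. In cohort 2 it averaged 12.2 ± 6.18 CPM in HF litters and 0.0856 ± 0.0212 CPM in CON litters (SD, n = 3 litters each). The second gene has no symbol in the name table (Entrez gene 100157129, 95197648 to 95214224, plus strand). It averaged 2.84 ± 0.708, 2.11 ± 0.805 and 2.38 ± 1.02 CPM in the same order and had 0 counts in all 6 piglets of the CON litters of cohort 2. FDR values were 0.0628 and 0.138 (edgeR quasi-likelihood test of the interaction), and leaving out the CON litter of replicate 2, 4 or 6 gave 0 calls.

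Counts of ADIRF in single piglets formed separate ranges, where 8 libraries held 0 to 2 counts and 16 held 71 to 226. Low libraries were all 6 CON piglets of cohort 2, AGA CON replicate 1 and SGA HF replicate 4, while the littermates of the last 2 held 131 and 86 counts. The same 8 libraries had 0 counts of gene 100157129, and the other 16 had 13 to 37. SNCG, a synuclein gene, was at 10 counts or fewer in 5 of the 8 libraries (CON replicates 4 and 6, both piglets each, and SGA HF replicate 4) and at 179 to 195 in the other 3. Every library held reads of the flanking genes LDB3 (24 to 74 counts) and BMPR1A (30 to 76 counts). Over all 12 litters the diet difference of ADIRF was 1.44 ± 0.94 (log2, SE) and did not pass (adjusted p = 0.999, edgeR). The genes SNCG, LDB3 and BMPR1A were looked at for their position, after the values of the called genes were seen.

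**Figure D4:**
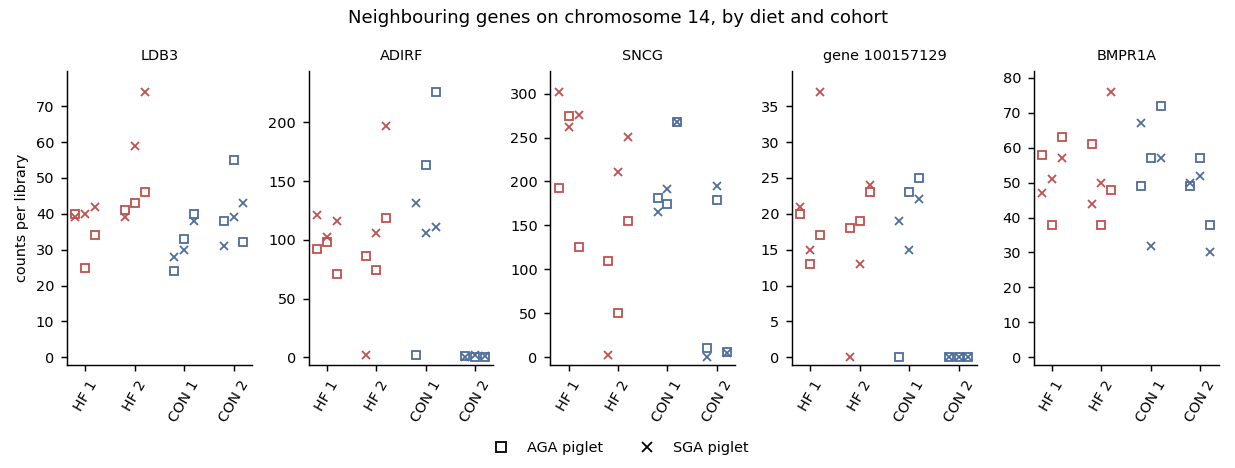
Counts per library of ADIRF, SNCG and gene 100157129 with the flanking genes LDB3 and BMPR1A, by diet (HF red, CON blue) and cohort (1 or 2), with squares for AGA and crosses for SGA piglets. ADIRF is at 0 to 2 counts in 8 libraries and at 71 to 226 in 16, whereas LDB3 and BMPR1A have at least 24 counts in every library.

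The other leading genes of that test did not pass. REC8, a meiotic cohesin subunit, averaged 18.3 CPM in HF and 27.9 CPM in CON litters of cohort 1, but 18.6 and 17.3 CPM in cohort 2 (FDR 0.925, edgeR). ARHGEF10L, a guanine nucleotide exchange factor, averaged 36.2 and 48.6 CPM in cohort 1 and 43.4 and 39.2 CPM in cohort 2. SGPP1, a phosphatase of sphingosine phosphate, averaged 7.63 and 4.86 CPM in cohort 1 and 4.599 and 6.13 CPM in cohort 2. ASB18 and the synaptic vesicle protein gene SV2B had the same kind of crossing, with log2 fold changes of 0.33 and 0.18 in cohort 1 and -0.48 and -0.42 in cohort 2.

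Gene lists are described by their counts and medians beside those of all genes tested, where 49.5% of genes were higher in HF and the median log2 fold change was -0.0014. No member of any of the 34 lists was called at FDR under 0.4. In whole tissue, fewer cells of a type and less RNA per cell cannot be told apart. Of lipid pathways, cholesterol synthesis had 16 of 21 members with higher values in HF and a median of 0.05. Between 14 and 17 members were higher when each litter was left out. In AGA piglets alone 12 of 21 were higher (median 0.0099), and in SGA piglets alone 18 of 21 (median 0.11). Summed over the 21 genes, litters ran from 3969 to 4960 CPM in HF and from 3887 to 4939 CPM in CON. TM7SF2 and PMVK (log2 fold change 0.19 ± 0.078, SE), a mevalonate pathway kinase, were the 2 members with an unadjusted p under 0.05. SQLE, which catalyses a slow step of the pathway, stood at 133 ± 12.98 CPM in HF and 120.0 ± 9.27 CPM in CON litters.

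In the other lipid lists the members were split. Fatty acid synthesis, desaturation and elongation had 10 of 21 members higher in HF (median -0.01), phospholipid and choline metabolism 10 of 23 (median -0.04), and release of arachidonic acid and eicosanoids 10 of 21 (median -0.0023). Lipoprotein and fatty acid transport had 8 of 25 higher (median -0.02), and fatty acid oxidation with PPAR targets 12 of 30 (median -0.01). MLXIPL, a glucose-responsive activator of lipid synthesis, stood at 25.7 ± 3.28 CPM in HF and 30.5 ± 3.71 CPM in CON litters (log2 fold change -0.23 ± 0.090, SE). SCARB1, a receptor for high-density lipoprotein, stood at 153 ± 8.36 and 167 ± 11.8 CPM, and UCP2, a mitochondrial carrier, at 25.4 ± 11.6 and 19.7 ± 7.14 CPM, with log2 fold changes of -0.12 ± 0.052 and 0.30 ± 0.14 (SE). In these 5 lists MLXIPL, SCARB1 and UCP2 were the only members with an unadjusted p under 0.05. Without the CON litter of replicate 2 the higher members numbered 14 of 25 in lipoprotein and fatty acid transport (median 0.02), 17 of 30 in fatty acid oxidation (median 0.03) and 12 of 23 in phospholipid and choline metabolism (median 0.01). Without the HF litter of replicate 4 they numbered 7, 8 and 6, with medians of -0.02, -0.05 and -0.05.

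Myelin genes had 15 of 23 members higher in HF, with a median of 0.07. In cohort 1 alone 11 of 23 were higher (median -0.06) and in cohort 2 alone all 23 (median 0.17). Without the CON litter of replicate 2 the count was 18 of 23. OPALIN, an oligodendrocyte membrane protein, ran from 597 to 923.8 CPM in HF litters (median 786) and from 519 to 770 CPM in CON litters (median 634), with a log2 fold change of 0.25 ± 0.097 (SE). MBP, a major protein of the myelin sheath, differed by -0.05 ± 0.13 (SE) on the log2 scale. Summed over the 23 genes, litters ran from 18230 to 29890 CPM in HF and from 20620 to 26700 CPM in CON, so the spread among HF litters exceeded that among CON litters and held all of them. Oligodendrocyte precursor genes had 6 of 12 higher (median 0.01; 0.07 without CON replicate 2 and -0.0029 without HF replicate 4), led by the lineage factor SOX10 at 8.68 ± 2.17 and 6.38 ± 1.39 CPM (log2 fold change 0.42 ± 0.15, SE).

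All 5 immune lists had medians below 0, and in each the median of cohort 1 was lower than that of cohort 2. None of 9 tested MHC class II genes was higher in HF (median -0.99), with a median of -1.72 in cohort 1 alone and -0.07 in cohort 2 alone. Summed over the 9 genes, the CON litters of replicates 2 and 3 stood at 174.5 and 160.8 CPM, the HF litter of replicate 2 at 81.8 CPM, and the other 9 litters between 33.6 and 58.0 CPM. Both piglets of the CON litter of replicate 2 were high, at 156 (AGA) and 193 CPM (SGA), but in replicate 3 the SGA piglet had 266 and its AGA littermate 55.9 CPM. With all litters 2 of 9 members had an unadjusted p under 0.05. Without CON replicate 2 the median was -0.78 with 1 of 9 members at an unadjusted p under 0.05, and without HF replicate 4 it was -1.35 with 9 of 9. Of all 16326 genes, 1231 and 1203 had such a p in these fits, against 625 with all litters. SLA-DRB1, an antigen-presenting chain, ran from 0.963 to 7.72 CPM in HF (median 2.16) and from 3.18 to 17.0 CPM in CON litters (median 7.69), a log2 fold change of -1.41 ± 0.47 (SE). SLA genes vary between haplotypes and have near-identical copies, which makes their counts less certain.

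MHC class I and antigen presentation had 0 of 16 members higher (median -0.28), and 3 of 16 without the CON litter of replicate 2 (median -0.14, 1 member at an unadjusted p under 0.05). Without the HF litter of replicate 4 the count stayed at 0 of 16 (median -0.38), with 9 members at an unadjusted p under 0.05. The numbers of all 16326 genes with such a p in these fits were 1231 and 1203. Over all litters the members at an unadjusted p under 0.05 were SLA-3, SLA-5, TAP2 and TAPBP, of which SLA-5 stood at 9.71 ± 4.88 CPM in HF and 22.0 ± 12.4 CPM in CON litters. Interferon-stimulated genes had 7 of 30 higher (median -0.21), but 17 of 30 without CON replicate 2 (median 0.03) and 5 of 30 without HF replicate 4 (median -0.37). Their sum was 982 CPM in that CON litter and between 278.0 and 554.2 CPM in the other 11 litters. Microglial markers had 1 of 17 higher (median -0.19), 8 of 17 without that litter (median -0.0037) and 1 of 17 without HF replicate 4 (median -0.26). In cohort 1 alone 2 of 17 microglial markers were higher (median -0.45), and in cohort 2 alone 10 of 17 (median 0.06). The microglial members of smallest p were CTSS, a lysosomal protease, at 6.37 ± 1.04 CPM in HF and 8.72 ± 4.10 CPM in CON litters, ITGAM, an integrin chain, at 7.68 ± 2.20 and 9.74 ± 3.14 CPM, and TYROBP, a signalling adaptor, at 16.6 ± 4.74 and 19.7 ± 4.599 CPM. Complement had 6 of 17 members higher (median -0.06) and inflammatory cytokines and signalling 3 of 19 (median -0.10), with 13 of 17 and 13 of 19 higher in cohort 2 alone. Without CON replicate 2 the counts were 8 and 7 (medians -0.04 and -0.07), and without HF replicate 4 they were 2 and 3 (medians -0.22 and -0.17). Astrocyte markers had 6 of 14 higher (median -0.06), with 9 of 14 without CON replicate 2 (median 0.03) and 4 of 14 without HF replicate 4 (median -0.12).

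Marker genes of meningeal fibroblasts, cells of the membranes around the brain, had 16 of 18 members higher in HF, with a median of 0.28 and 5 members at an unadjusted p under 0.05. Between 15 and 18 were higher when each litter was left out, and the median was 0.17 without the HF litter of replicate 4. The 5 were PRG4, TNMD, DCN, COL1A2 and FBLN1, a lubricating proteoglycan, a tendon membrane protein and components of connective tissue. A fit over single piglets of these same data had already pointed to PRG4 and TNMD, so their count here is no separate support. PRG4 passed the filter only through HF libraries, and its highest CON library was at 0.822 CPM. PRG4 was at 0 in 3 CON litters and reached 0.621 CPM there, and in HF litters it ran from 0.0645 to 2.40 CPM (median 0.796). TNMD ran from 0.258 to 3.02 CPM in HF (median 1.84) and from 0.130 to 1.44 CPM in CON litters (median 0.239). DCN, the collagen-binding decorin, stood at 22.4 ± 3.67 and 17.9 ± 4.15 CPM (log2 fold change 0.34 ± 0.13, SE). Summed over the 18 genes, litters ran from 289 to 435 CPM in HF (median 384) and from 267 to 412 CPM in CON (median 326), and the diets overlapped. EFEMP1, RSPO2, EGFLAM and TLL2 were named above for small p with higher HF values, so their direction adds nothing to that of this list. The part of meningeal tissue in their values was not tested.

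Markers of the choroid plexus, which borders the hippocampus, had 3 of 7 members higher (median -0.07). TTR, its transport protein, ran from 8.44 to 15.2 CPM in HF litters (median 11.0) and from 5.77 to 94.95 CPM in CON litters (median 22.6), and its highest library was SGA CON replicate 1. The markers CLIC6, KCNE2, OTX2, SOSTDC1 and AQP1 were at 11 counts or fewer in every library. Endothelial and pericyte markers had 6 of 21 higher (median -0.06), ependymal markers 3 of 6 (median -0.03) and blood markers 3 of 6 (median 0.07), with HBB, a haemoglobin chain, at 286 ± 36.4 and 227 ± 71.7 CPM. CD3E, a T cell receptor chain and the one blood marker with an unadjusted p under 0.05, stood at 0.284 ± 0.446 CPM in HF and 1.05 ± 1.51 CPM in CON litters. Of pituitary markers 3 of 4 were higher (median 0.14), and TSHB, FSHB and POU1F1 had 0 counts in all libraries. Markers of thalamus, striatum and other brain regions had 6 of 12 higher (median -0.0092). Without CON replicate 2 endothelial and pericyte markers had 13 of 21 higher (median 0.02) and the other brain regions a median of 0.03. Without HF replicate 4 the endothelial and pericyte count was 2 of 21 (median -0.14), the pituitary count 1 of 4 (median -0.07), the ependymal count 1 of 6 (median -0.11) and the choroid plexus count 4 of 7 (median 0.06), and the blood median was -0.02.

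Synaptic vesicle and release genes had 5 of 23 members higher in HF (median -0.10), with 16 of 23 higher in cohort 1 and 1 of 23 in cohort 2. With all litters 0 of 23 members had an unadjusted p under 0.05. Without CON replicate 2 there were 3 of 23 higher (median -0.14) with 11 members at an unadjusted p under 0.05, and without HF replicate 4 there were 10 of 23 (median -0.01) with 0 such members. Of all 16326 genes, 1231 and 1203 had such a p in these fits, against 625 with all litters. SYN2, which tethers vesicles, had log2 fold changes of 0.07 and -0.45 in the cohorts, a difference that did not pass (adjusted p = 0.948, edgeR). GABA receptors and interneuron genes had 14 of 24 higher (median 0.07), with 20 of 24 in cohort 1 and 6 of 24 in cohort 2. Glutamate receptors and their scaffold had 9 of 30 higher (median -0.04), and 14 of 30 without HF replicate 4 (median -0.01). Hippocampal excitatory neuron markers had 9 of 13 higher (median 0.07), and markers of immature neurons and progenitors 6 of 11 (median 0.0054). Without CON replicate 2 these were 6 of 13 (median -0.01) and 8 of 11 (median 0.11). In cohort 1 alone 12 of the 13 excitatory neuron markers were higher (median 0.14), and in cohort 2 alone 5 of 13 (median -0.04). Summed over these 13 genes, the median litter stood at 4152 CPM in HF and 4754 CPM in CON. C1QL3, a synaptic C1q-like protein of excitatory neurons, stood at 77.3 ± 11.8 CPM in HF and 65.0 ± 10.17 CPM in CON litters (log2 fold change 0.23 ± 0.11, SE).

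Cytosolic ribosomal protein genes had 60 of 68 members higher in HF, each by a small amount (median 0.05), and none had an unadjusted p under 0.05. Without the HF litter of replicate 4, 34 of 68 were higher. Respiratory complex I had 26 of 38 higher (median 0.02), with 33 of 38 in cohort 1 and 12 of 38 in cohort 2, and with 16 of 38 without CON replicate 2 (median -0.01). NDUFA12, an accessory subunit, ran from 105.1 to 127 CPM in HF (median 111) and from 88.1 to 111 CPM in CON litters (median 102; log2 fold change 0.15 ± 0.063, SE). Of 38 listed genes of complexes II to V only 11 were matched by symbol in the name table, so most were not looked at. Of these, 7 of 11 were higher (median 0.0028), with 3 of 11 without CON replicate 2 (median -0.04). Without HF replicate 4 the count was 5 of 11 (median -0.0030). Neurotrophin and growth factor genes had 8 of 20 higher (median -0.0061; 0.0036 without CON replicate 2 and 0.0083 without HF replicate 4), immediate early genes 5 of 16 (median -0.08) and heat shock and glucocorticoid response genes 4 of 19 (median -0.07). The last list held HSP70.2 under 2 names, so this gene counts as 2 of the 19 members, both lower (log2 fold change -0.33 ± 0.17, SE). PER1, a clock gene that responds to glucocorticoids, stood at 260 ± 22.1 and 309 ± 52.1 CPM (log2 fold change -0.24 ± 0.085, SE). Heparan sulfate enzymes had 11 of 18 higher (median 0.03), and HS3ST4, a sulfotransferase, stood at 64.4 ± 5.12 and 78.6 ± 11.6 CPM (log2 fold change -0.27 ± 0.084, SE).

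**Figure D5:**
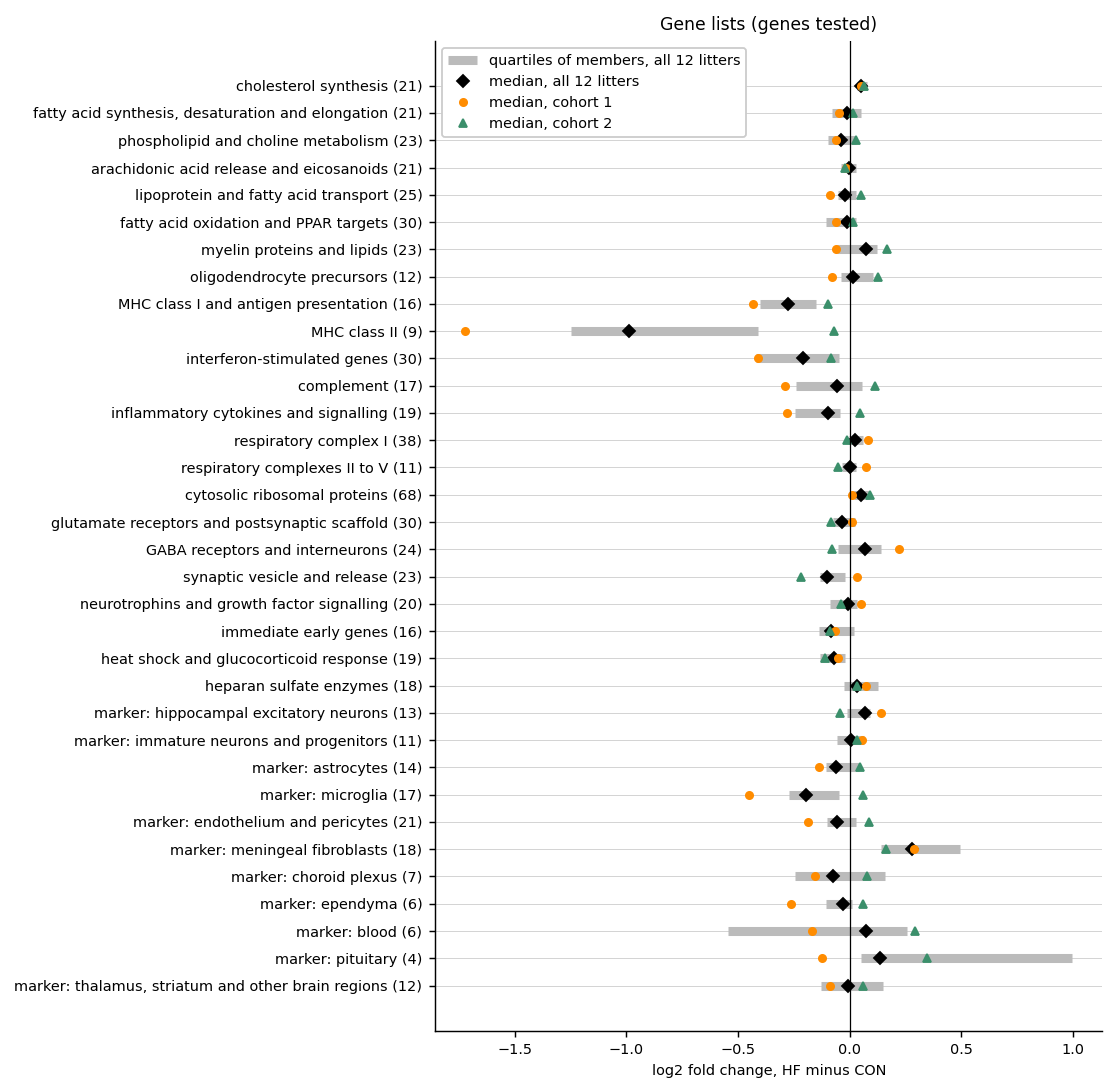
Median log2 fold change of HF against CON for each of 34 gene lists, with the number of genes tested in brackets, over all 12 litters (black diamonds, grey bars for the quartiles of members) and in each cohort alone (orange circles and green triangles). MHC class II has the lowest median at -0.99, with -1.72 in cohort 1 and -0.07 in cohort 2, and most other medians lie near 0. HSP70.2 counts as 2 of the 19 heat shock and glucocorticoid response members.

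Genes that a fit over single piglets had pointed to were followed at the litter level. TRMO, an RNA methyltransferase, stood at 6.25 ± 1.04 CPM in HF and 4.76 ± 0.560 CPM in CON litters (log2 fold change 0.39 ± 0.13, SE). SAMD4B, an RNA-binding protein, stood at 138 ± 11.0 and 158 ± 16.2 CPM, and TAF3 at 16.1 ± 1.27 and 18.9 ± 0.716 CPM, with log2 fold changes of -0.20 ± 0.064 and -0.22 ± 0.076 (SE). RASL10A (71.2 ± 11.9 and 63.0 ± 11.3 CPM) and PEA15 (3250 ± 271 and 3421 ± 184 CPM) differed by less than the SD between litters. With 24 single piglets, 5 surrogate variables and no term for litter, 17 genes were called (12 higher, 5 lower), and with litter as a random effect 0. All of these genes had an FDR of 0.999 over the 12 litters.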

How the data were processed

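RNA was sequenced as single-end, polyA-selected, stranded libraries. For RNA quality the paper gives an average over the samples, whose value it ascribes to pre-spliced RNA. Quality per library was not available here, so it was not compared between diets. The authors trimmed reads with Trimmomatic 0.33, aligned them to Sscrofa10.2 with STAR 2.5.2a, counted exon reads per Entrez gene with featureCounts (Subread 1.5.0, reverse strand), and deposited raw counts per library. The 1 entry without an identifier (mitochondrial rRNA and tRNA, 0.613 to 1.62% of reads) was left out. Symbols came from an Sscrofa11.1 table (23036 of 38882 genes matched, 15993 with a symbol); coordinates are those of the deposited counts.

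Counts of the 2 littermates were summed, scaled by TMM and tested in edgeR 4.0.16 (R 4.3.3; robust quasi-likelihood) with sex, cohort and diet, and a diet by cohort term in a second fit, over genes reaching 1 CPM in 3 or more of 24 libraries. Benjamini-Hochberg adjustment covered each contrast. CPM values are means of littermates' TMM-scaled CPM. Alternatives used DESeq2 1.42.0, limma 3.58.1 and sva 3.50.0. Pipelines were tested on simulated data. Floors in CPM cover counting error only, and p-values measure the spread between litters. Members and lists were chosen with earlier results of these data known. Named genes are, among genes with a symbol other than a LOC number, the 10 of smallest p per direction, the 3 of smallest p among each list's members, and 10 from a fit over single piglets, given in full or by list; list members beyond these and genes singled out for position or extreme values were chosen after their values were seen.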

Additional observations from a re-analysis of the deposited data

Results flagged for a closer look

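Within the 6 litters of a diet, a litter was picked out where its gap to the nearest other litter took up more of the range than Dixon's 95% critical value allows, which chance does in about 1 in 20 groups, and 46 groups (23 genes in 2 diets) were looked at. GNLY was at 9.34 CPM in the CON litter of replicate 2, where the other 5 CON litters lay between 1.56 and 3.20 CPM. GH1 was at 153.0 CPM in the HF litter of replicate 4 and at 1.03 CPM or less in the other 5 HF litters, and nearly all of it came from the SGA piglet, which also held the most PRL, CGA and POMC counts of all 24 libraries. GH1 was also at 2.52 CPM in the CON litter of replicate 1, with the other CON litters at 0.542 CPM or less.

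The difference of the diet effect between cohorts passed its test in 2 genes that lie close together on chromosome 14. The interaction (cohort 2 minus cohort 1, log2) was 7.13 for ADIRF (SE 0.81, FDR 0.0628, edgeR) and 7.60 for gene 100157129 (SE 1.17, FDR 0.138). Fitted sizes depend on the prior count, since the CON litters of cohort 2 held 0 to 2 counts per library of the first gene and 0 of the second, and are no bound. Presence or absence of these transcripts went by piglet as well as by litter, as AGA CON replicate 1 and SGA HF replicate 4 differed from their littermates. The cause was not tested.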

How the results depend on the processing

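The 0 genes called for diet at FDR under 0.4 became 300 without a filter on low counts (131 higher, 169 lower, of 27413 genes), 8 with sex and 2 surrogate variables, 17 with 24 piglets and 5 surrogate variables, 6 in cohort 2 alone and 2 with a replicate block. Leaving out each litter gave 0 to 22 calls. Of the 300 calls, 270 were among the 16326 genes of the main comparison. Without the filter the median degrees of freedom behind a gene's test were 219304, against 16.6 with it, so that a gene's own spread between litters hardly entered its test. Genes at an unadjusted p under 0.05 numbered 1248 without a filter, 1137 with 24 piglets and 5 surrogate variables, and 434 to 1231 when each litter was left out (625 in the main fit). DESeq2's size factors, the stricter filter of 6 libraries, DESeq2, limma voom, limma on mean log2 CPM, no covariates, sex only and litter as a random effect each gave 0 calls. For diet by cohort, the 2 calls became 0 at FDR under 0.05, 397 without a filter, 14 in DESeq2 and 0 to 27 when each litter was left out. Genes at an unadjusted p under 0.05 were 785, with 1479 without a filter and 461 to 1186 when each litter was left out. The cause was not tested where none is given. Replicate numbers were not taken to pair the diets: correlations of same-numbered litters' deviations were 0.192, 0.318, 0.19, 0.0883, -0.0279 and 0.172, so that not every pair was over 0.1. Numbers 1 to 4 correlated best with their own number, and 5 and 6 with another. Cohort and sex were left in these deviations, and same-numbered litters of cohort 1 share both, so the correlations cannot decide on a pairing. With the replicate block the 2 calls were genes without a symbol, 102167096 (lower, FDR 0.00461), of which 311 counts were in the AGA CON piglet of replicate 2 and at most 28 in any other, and 100512054 (higher, FDR 0.17), with 0 counts in all CON libraries and 19 libraries in all. GH1 (log2 3.44) was -0.16 with the replicate block, -0.59 in cohort 1, -3.47 in AGA piglets alone and -0.42 to 6.89 when each litter was left out, and PEA15 was 0.017 in SGA piglets alone. Other genes that turned were SLC17A7 (0.020), UCP2 (-0.019), SYN2 (0.070) and ADIRF (-0.27) in cohort 1, TTR (0.55) and MBP (0.14) in cohort 2, and MBP (0.074), ITGAM (0.032) and NEK3 (-0.013) in SGA piglets alone, with MBP at 0.016 and 0.027 without HF replicates 1 and 2. Total counts were higher in HF by 515000 in SGA piglets alone, and genes with reads (29.3 more in HF over litters) differed by -190.2 in AGA piglets alone. The fits of AGA and of SGA piglets alone were chosen after seeing the data. Of the 69 genes named for diet, the other 59 kept their direction in the alternatives run. Alternatives refit the same litters, or some of them, from which these genes were picked, so a kept direction is no separate support. DESeq2's size factors turned the median of 0 of the 34 lists, and leaving out one or another litter that of 21. Depth limits genes near 0.323 to 0.499 CPM, the value of 3 counts in one library.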
